A study of Mus musculus with 4514 samples.

Results

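Hepatocyte nuclei with a DNA content of 4N were compared with 2N nuclei from mice at postnatal day 60 (P60). Nuclei were chosen by their labels alone: 501 nuclei, 340 of them labelled P60 2N and the rest P60 4N, of the 1113 nuclei and 4514 samples of the series. All mice had the genotype Alb-Cre; Rosa-tdTomato, in which the albumin promoter drives Cre in hepatocytes and Cre turns on a red reporter, and the labels name no treatment. Hepatocytes were sorted by flow cytometry and homogenised, the released nuclei were stained with the DNA dye DAPI, and single nuclei were sorted into wells for mSTRT-seq, a well-based method that barcodes the cDNA of each nucleus before pooling. Besides these groups, P60 nuclei from sorts labelled 1x2N (57 nuclei), 1x4N (69), 2x2N (66) and 2x4N (56) were used as separate P60 pairs. They had the same genotype, age and method. In these labels, 1x and 2x were read as 1 and 2 nuclei per cell. Nuclei of the ages P0, P9 and P18, and whole P60 cells sorted as 2N and 4N, were used only in comparisons that name them. No label names an animal, so each group is 1 pool, nuclei are not replicates, and p-values over pools measure only the spread between these pools, which may be technical.

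Hepatocytes become polyploid as the liver matures after birth, when cells replicate DNA without completing cell division, so that adult mouse liver holds cells with 1 or more nuclei of doubled DNA content. The liver lobule is also divided by blood flow: hepatocytes near the central vein (pericentral) express genes of drug metabolism and glutamine synthesis, and those near the portal tract (periportal) express genes of urea synthesis, amino acid breakdown and gluconeogenesis. Cyp2e1, a cytochrome P450 that oxidises ethanol and other small molecules, is a standard pericentral marker. A sort on DNA content does not separate a resting 4N nucleus from a 2N nucleus that has replicated its DNA before division, or from a pair of 2N nuclei sorted together.

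Both groups carried hepatocyte transcripts. Albumin counts were found in all 501 nuclei, and 11 of the 12 hepatocyte markers reached 10 CPM (counts scaled to 1e6 gene counts per nucleus). The summed level of these markers was 22540 CPM in 2N and 23910 CPM in 4N nuclei. Markers of other liver cell types were low in the pooled groups. Endothelial markers summed to 61.6 CPM in 2N and 50.9 CPM in 4N nuclei, stellate markers to 30.9 and 45.6 CPM, macrophage markers to 29.7 and 14.7 CPM, and lymphocyte and neutrophil markers to 2.21 and 5.11 CPM. Set 1 held more of the endothelial and macrophage markers: endothelial markers summed to 646.7 CPM in its 2N and 133.1 CPM in its 4N nuclei, against at most 59.04 CPM in the other sets, and macrophage markers to 226.1 and 37.2 CPM, against at most 25.7 CPM. Their part in the results of set 1 was not tested. Cholangiocyte markers summed to 158.5 and 137.3 CPM and erythroid markers to 41.7 and 59.7 CPM. In 0 nuclei of either group did the other markers together reach the count of the hepatocyte markers. Ddx3y, a gene of the Y chromosome, had counts in 77.4% of 2N and 88.2% of 4N nuclei, and Xist was listed at 0 in all of them. The counts used here held 0 of 11 genes of the mitochondrial genome, so mitochondrial RNA could not be used to judge the nuclei.

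The gene counts per nucleus had a median of 102708 in 2N nuclei (3608 to 665985) and of 142314 in 4N nuclei (5410 to 803693). ERCC spike-in RNA, a fixed mixture of artificial transcripts added to wells, showed that each group was not 1 uniform experiment. Along the numbers in the labels, the ERCC share of counts stepped between a few levels, in the same order in both groups, and each group was divided at these steps into 4 sets. Set 1, with no ERCC counts, held 26 2N and 37 4N nuclei. Set 2 held most 2N nuclei and 41 4N nuclei, with median ERCC shares of 0.954% and 0.503%. Set 3 held 25 and 44 nuclei with shares of 5.12% and 2.32%, and set 4 held 43 and 39 nuclei with shares of 0.865% and 0.492%. Thus 2N nuclei were concentrated in set 2, while 4N nuclei were spread over the 4 sets. The labels do not name these sets, and whether a set is an animal, a day or a plate is not given. The division was made after the data were seen, within each ploidy, from the ERCC share of all counts of each nucleus. The matching of a 2N set to a 4N set rests on their order and ERCC pattern. Levels differed between sets within 1 ploidy: B3galt1, a galactosyltransferase, had a mean of 3392 CPM in 2N nuclei of set 2 and of 268.2 CPM in those of set 4. Values are therefore given for the pooled groups, for each of the 4 sets, and for the 1x and 2x sorts, which makes 6 P60 pairs.

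**Figure D1:**
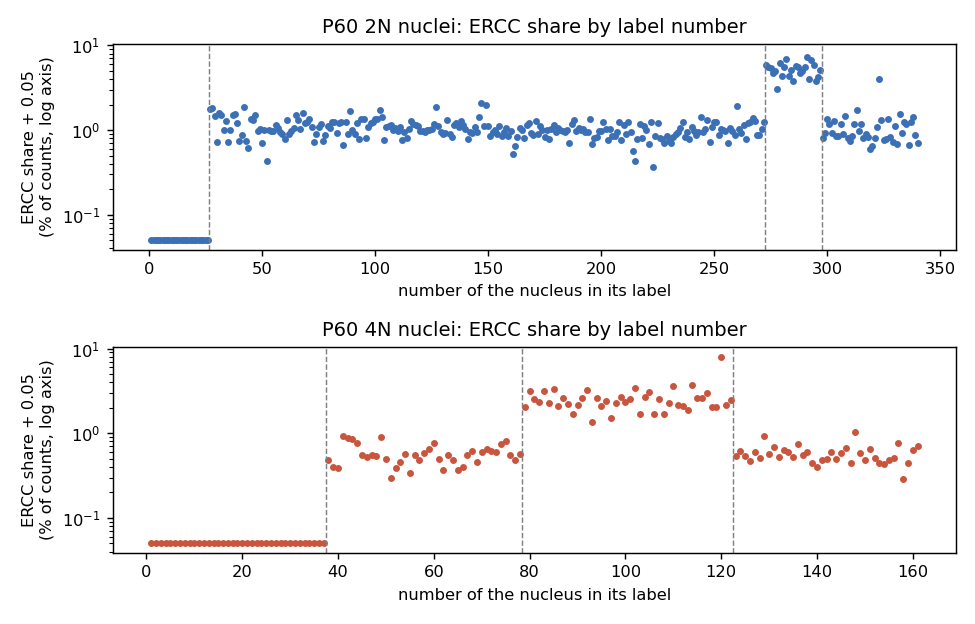
ERCC share of all counts (percent, with 0.05 added, log axis) for each nucleus in the order of its label number, 2N above and 4N below. Dashed lines divide the 4 sets; the share stepped from 0 to a low level, to a high level and back in both groups.

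Nuclei with 4N DNA content held about 2 times as many gene counts per spike-in count. In 2N nuclei the median was 103.8 gene counts per ERCC count in set 2, 18.5 in set 3 and 114.6 in set 4, against 197.7, 42.1 and 202.4 in 4N nuclei. The sorts gave 7.37 against 16.5 (1x) and 8.39 against 17.25 (2x). The 4N value was the higher one in each of the 5 pairs that had ERCC counts, by 1.91-, 2.27-, 1.77-, 2.25- and 2.06-fold in that order. The mean was 2.05-fold ± 0.218 (SD, n = 5 pairs; exact two-sided sign-flip permutation test, p = 0.0625, the smallest p that 5 pairs allow). The quartiles of single nuclei did not meet in any of these sets: in set 2 they were 85.96 to 119.1 in 2N and 174.2 to 233.1 in 4N nuclei. The sets were cut on the ERCC share, which is made of the same gene and ERCC counts as this ratio. The narrow quartiles and the pairs of sets 2, 3 and 4 in the test are therefore not independent of the values compared. The 1x and 2x pairs were taken by label. With all P60 nuclei pooled, the medians were 101.2 and 168.5, a 1.67-fold difference, with 26 2N and 37 4N nuclei without ERCC left out. The ratio of the summed counts was then 1.01. The pooled groups hold the sets in different shares: set 3, with the most ERCC, had 25 of the 2N and 44 of the 4N nuclei. The same amount of ERCC per well is assumed in each pair and is not given in the sources used here. Over the pools of the 4 ages and the 1x and 2x sorts, 4N was higher in 4 of 6 pairs, with a mean log2 ratio of 0.40 ± 0.78 (SD, n = 6 pairs; exact two-sided sign-flip permutation test, p = 0.25, smallest possible 0.0312). It was lower at P0 (0.601-fold) and P9 (0.756-fold), in pools of 12 and 21 4N nuclei, and higher at P18 (1.48-fold). From summed counts the ratios were 1.01 at P0, 0.836 at P9 and 0.77 at P18, so that the direction turned at P0 and P18. Quartiles of single nuclei were 26.37 to 50.31 in P9 2N and 6.464 to 70.57 in P9 4N nuclei. At P18 they were 7.051 to 52.28 in 2N, where 39 nuclei had no ERCC, and 10.19 to 15.15 in 4N nuclei. These pools were not divided by ERCC share, and whether they mix ERCC levels as the P60 pools do was not tested. P60 cells sorted as 2N and 4N had medians of 59.33 and 122.9 gene counts per ERCC count.

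**Figure D2:**
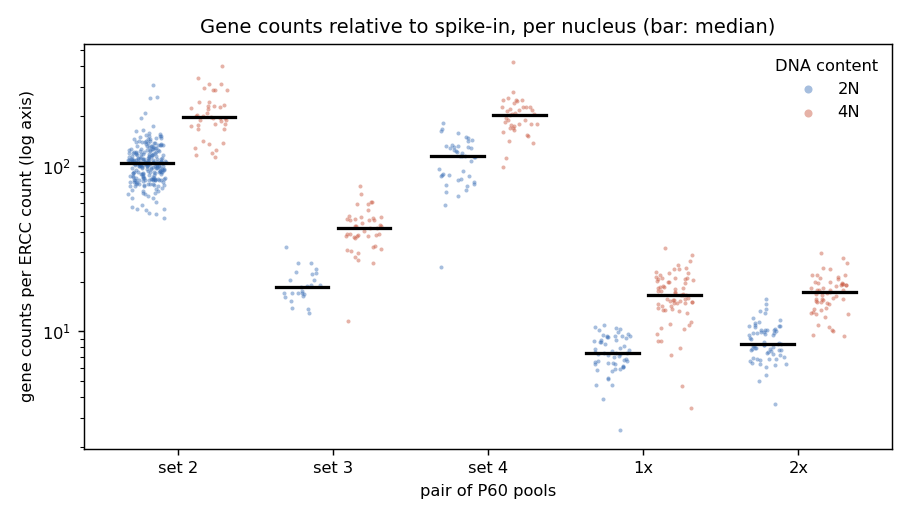
Gene counts per ERCC count in single nuclei (log axis) for the 5 P60 pairs with ERCC counts, 2N in blue and 4N in red; black bars are medians. The 4N median was 1.77 to 2.27 times the 2N median in each pair.

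Counts per ERCC count were also taken gene by gene, which divides the same totals among genes and is not a separate measure of the doubling. Among the 8463 genes with a mean of at least 10 CPM in either group, the median fold of counts per ERCC count, 4N over 2N, was 1.96 in set 2, 2.335 in set 3, 1.90 in set 4, 2.37 in the 1x and 2.00 in the 2x sort. At least 90.2% of the genes were above 1 in each of these pairs. Apob, the main protein of very low density lipoprotein, was 2.07 ± 0.291 times higher per ERCC count in 4N nuclei (SD, n = 5 pairs), and Cps1, the first enzyme of the urea cycle, 2.06 ± 0.401 times. Gsta3, a glutathione transferase, was 3.15 ± 0.356 times higher and was above the median gene in all 5 pairs. Malat1, an abundant nuclear long noncoding RNA, was only 1.22 ± 0.0760 times higher, with a range of 1.15 to 1.35, below the lower quartile of all genes in each pair. Its neighbour Neat1, the RNA scaffold of paraspeckles, was 1.93 ± 0.276 times higher. The periportal gene Sds, which encodes serine dehydratase, was 0.889 ± 0.302 times the 2N value and lay below 1 in 4 of the 5 pairs. Etnppl, another periportal gene, was 1.04 ± 0.465 times the 2N value (0.623 to 1.8) and Nnmt, a methyltransferase, 1.04 ± 0.530 times (0.691 to 1.95). Of the pericentral genes, Cyp2e1 was 3.19 ± 1.03 times the 2N value (1.64 to 3.99). Glul, glutamine synthetase, was 1.31 ± 0.192 times (1.12 to 1.63).

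More genes were detected in 4N nuclei, also at equal counts per nucleus. Whether these counts are reads or molecules is not given. If they are reads, equal counts need not stand for equal numbers of molecules, and the part of RNA content in these differences was not tested. After each nucleus was thinned to 20000 gene counts (17 2N and 6 4N nuclei were shallower and left out), the median number of genes with a count was 3246 in 2N and 3960 in 4N nuclei. The 4N median was the higher one in all 4 sets: 3382 against 3711 in set 1, 3248.5 against 4063 in set 2, 3366 against 4120.5 in set 3 and 2991 against 3761.5 in set 4. Without thinning, the medians of the same nuclei were 4406 and 5528 genes. For single genes, the share of nuclei with a count at the thinned depth was higher in 4N nuclei by a median of 6.66 percentage points. Cyp2e1 had a count in 90.7% of thinned 2N nuclei (exact Clopper-Pearson 95% interval 87.01 to 93.65%) and in 98.7% of thinned 4N nuclei (95.42 to 99.84%), and unthinned in 99.4% and in all 4N nuclei. Sds went the other way, with 50.15% (44.57 to 55.74%) in 2N and 30.97% (23.80 to 38.88%) in 4N nuclei. These intervals, and all others given here, cover counting error only.

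Nuclei of the 4N group also varied less from one another. The coefficient of variation over nuclei at 20000 counts, for the 3541 genes with a thinned mean of at least 1 count in both groups, had a median of 1.36 in 2N and 1.115 in 4N nuclei. The ratio of the 2 values had a median of 0.817 and was below 1 for 92.5% of these genes. Within sets, the median ratio was 0.920 in set 1, 0.756 in set 2, 0.815 in set 3 and 0.771 in set 4. The limit on equal counts holds here too, and the part of RNA content was not tested.

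Relative to the total, the expression profile of 4N nuclei was close to that of 2N nuclei. In the pooled groups, 1.37% of 8463 genes had a level at least 2-fold higher in 4N and 1.48% at least 2-fold lower, and 87.2% of genes lay within 1.5-fold. The median log2 fold, log2 of (4N level + 1 CPM) over (2N level + 1 CPM), was 0.06. Most of the largest pooled folds did not hold across the sets. Of the higher genes, 43 were higher in all 4 sets and 15 in all 6 P60 pairs, and 36 of the lower genes were lower in all 4 sets and 11 in all 6 pairs. Over all 8463 genes, 775 were higher and 426 lower in 4N in all 4 sets, and 3.34% were higher and 1.17% (99 genes) lower in all 6 pairs.

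Of the 15 genes with the largest pooled fold upwards, 6 were higher in all 4 sets, as were 775 of all 8463 genes. Bbs7, a subunit of the complex that carries proteins to the primary cilium, had 4.67 CPM in 2N and 14.9 CPM in 4N nuclei, with log2 folds of 1.53, 1.20, 0.92 and 1.66 in sets 1 to 4, 0.23 in 1x and 0.21 in 2x. Jag1, a Notch ligand, had 2.99 and 12.04 CPM, with log2 folds from 0.76 to 3.71 in the sets but of 0.05 in both 1x and 2x; 2 of its 2N sets were listed at 0, where the fold depends on the added 1 CPM. Oip5, a factor that loads the centromeric histone, had the largest pooled fold (9.80 and 34.6 CPM), yet its log2 fold was 6.23 in set 4 and -1.74 in set 1. All 15 were low: 14 of them had 2N levels from 2.99 to 15.9 CPM, and the unnamed transcript Gm12718 had 41.3 CPM.

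Of the 15 with the largest pooled fold downwards, 3 were lower in all 4 sets, as were 426 of all 8463 genes. Zbtb7c, a zinc finger transcription factor, had 142.1 CPM in 2N and 28.5 CPM in 4N nuclei, the largest fold of these (log2 fold -2.28), and was lower in all 6 pairs, with log2 folds of -0.24, -1.50, -1.68 and -1.73 in sets 1 to 4, -0.28 in 1x and -0.62 in 2x. Arhgap10, a GTPase-activating protein, had 21.6 CPM in 2N and 5.67 CPM in 4N nuclei. It was also lower in all 6 pairs, with log2 folds from -2.66 in set 4 to -1.45 in set 3. B3galt1 had a large pooled difference, 2585 against 809 CPM, but log2 folds of 0.32 in set 1 and 0.175 in set 4. Cyp2c69 had 113.1 CPM in 2N and 26.8 CPM in 4N nuclei when pooled, yet was higher in 4N nuclei in 5 of the 6 pairs. That gene and Cyp2c40 have near-identical neighbours, so their counts are uncertain as to the member. The plot of pooled against set folds shows the 15 genes with the largest folds downwards; by the mean of the set folds, Nedd9 and Arhgap10 were further from 0 than pooled, and the others were nearer to 0. From levels with the sets weighted equally, Cyp2b9 was further from 0 as well, at -2.87 against -1.76.

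**Figure D3:**
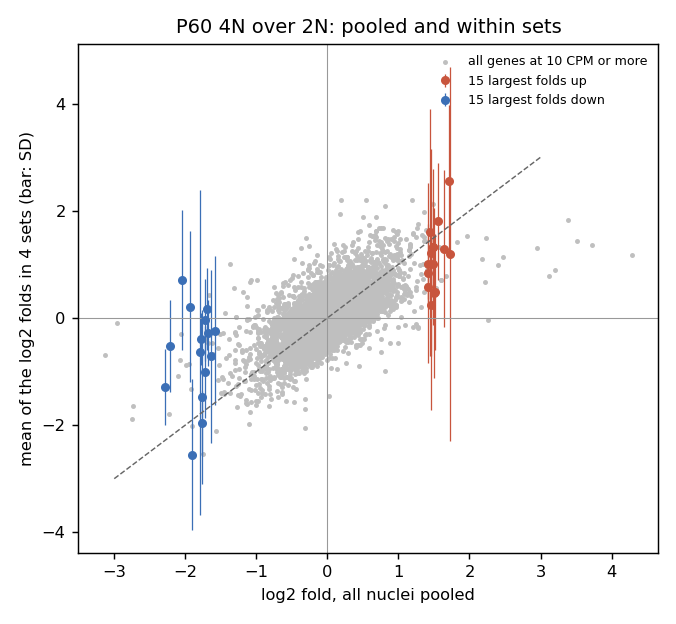
Each gene's log2 fold (4N over 2N) with all P60 nuclei pooled (x axis) against the mean of its log2 folds in the 4 sets (y axis); bars are the SD over the sets for the 15 largest pooled folds in each direction among genes with a count in at least 20% of nuclei of the higher group. The dashed line marks equality, and Zbtb7c lies at -2.28 pooled and -1.29 within sets.

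Tests over pools found few genes that differed. Summed counts per pool were fitted with edgeR's quasi-likelihood test with Benjamini-Hochberg adjustment over all genes. With the 3 P60 sorts as pairs (pooled P60, 1x and 2x), 13095 genes were tested; 4 rose (0.0305%) and 12 fell (0.0916%) in 4N nuclei at an adjusted p under 0.05. With the 4 sets as pairs, 0 of 11840 genes passed in either direction (0.0% and 0.0%), while 432 had an unadjusted p under 0.05, and DESeq2 gave 1 higher and 17 lower. With all 6 P60 pairs, 0 of 13173 genes (0.0%) were higher and 1 (0.00759%) was lower at the threshold, with 582 at an unadjusted p under 0.05, and DESeq2 gave 4 higher and 24 lower. Over the 4 ages P0, P9, P18 and P60, 0 of 13025 genes passed in either direction (0.0% and 0.0%) with 361 at an unadjusted p under 0.05, and DESeq2 gave 26 higher and 1 lower. In simulated pools, the 6-pair fit recovered 50 of 100 genes changed 2-fold and 88 of 100 changed 4-fold. The simulation gave each gene 1 mean in all pools and the same fold in each pair. It changed only genes with a mean of at least 10 CPM. The real sets and sorts differed in level, so these rates need not hold for the real pools.

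The gene that passed over the 6 pairs was Nnmt, nicotinamide N-methyltransferase, a vitamin B3 and methyl group enzyme, at chr9:48591877-48605153 (GRCm38). Its level was 376.9 CPM in pooled 2N and 128.4 CPM in pooled 4N nuclei. In 2N nuclei it had 226.3, 422.9, 218.3 and 297.3 CPM in sets 1 to 4, 346.4 CPM in 1x and 372.2 CPM in 2x. In 4N nuclei it had 156.3, 137.4, 72.6, 155.5, 301.5 and 157.5 CPM in the same order. Each 4N pool was below its 2N pool, by the least in 1x. The fitted log2 fold was -1.15 (edgeR adjusted p = 0.0353), and it was -1.33 over the 4 sets (adjusted p = 0.0622). Leaving out set 2, set 3, set 4 or the 2x pair left 0 genes past the threshold, while 8 were lower without set 1 and 2 without the 1x pair. The genes next in order of p over these pairs did not pass. They were Zbtb7c (edgeR adjusted p = 0.088), Etnppl, which breaks down phosphoethanolamine and is a periportal gene (0.088), and Cryl1, a sugar dehydrogenase of the glucuronate pathway (0.125), each lower in all 6 pairs. Nnmt and Cryl1 were chosen after their values were seen.

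The 16 genes that passed over the 3 P60 sorts rest on few pools. Without the 2x pair, 0 rose and 1 fell, without the 1x pair 19 rose and 45 fell, and without the pooled P60 pair 7 rose and 11 fell. Of the 4 that rose, 1 was higher in all 4 sets, and of the 12 that fell, 2 were lower in all 4 sets. Among the 8463 genes at 10 CPM, 775 were higher and 426 lower in all 4 sets. The 4 that rose were Akr1c6, a pericentral steroid dehydrogenase (log2 fold 0.83, edgeR adjusted p = 0.0431), Hamp2, a relative of the iron hormone hepcidin (0.97, 0.0431), Car3, a carbonic anhydrase (0.81, 0.044), and Cyp2e1 (0.76, 0.044). Akr1c6 was higher in all 6 P60 pairs, but its sets differed little: 1605 against 1635, 736.4 against 754.3, 1295 against 1345 and 1904 against 2085 CPM in sets 1 to 4, and 227.4 against 481.2 and 264.7 against 571 CPM in 1x and 2x. Hamp2 has a near-identical copy, Hamp, and its counts are uncertain as to the member.

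Malat1 had the smallest adjusted p of the genes that fell (edgeR, -0.71, adjusted p = 0.00719). Its level was 32510 CPM in pooled 2N and 25140 CPM in pooled 4N nuclei. The 2N pools had 22470, 30450, 41610 and 45080 CPM in sets 1 to 4, 32030 in 1x and 26130 in 2x, and the 4N pools had 32360, 18710, 22970, 27510, 19120 and 18200 CPM. Thus 4N was lower in 5 of the 6 pairs and higher in set 1. That set had 646.7 CPM of endothelial markers in 2N against 133.1 CPM in 4N nuclei, and a link to Malat1 was not tested. Over the 6 pairs the log2 fold of Malat1 was -0.64 (edgeR adjusted p = 0.459). Fam124a had the same adjusted p over the sorts (log2 fold -1.69). Gldc, the decarboxylase of the glycine cleavage system, fell by 1.04 on the log2 scale (edgeR adjusted p = 0.00751), and Sds fell by 1.31 (0.00931). Saa1, an acute phase protein with near-identical family members, fell by 2.37 (0.0108), the transcript RP23-8J15.3 by 1.46 (0.0106) and Abhd2, a lipid hydrolase, by 0.96 (0.0431). Abhd2 and Slc41a2, a magnesium transporter, were lower in all 6 pairs. Cyp7b1, an oxysterol hydroxylase, fell by 0.50 on the log2 scale (edgeR adjusted p = 0.0431), yet was higher in 4N nuclei in sets 1 and 4. Nampt, an enzyme of NAD synthesis, fell by 0.84 and Cdh1, the periportal cell adhesion protein E-cadherin, by 1.36 (edgeR adjusted p = 0.044 for both). Tmem132b, which was listed at 0 in every 4N pool and in 3 of the 6 2N pools, with its highest level of 22.6 CPM in 2x, also passed.

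Cyp2e1 (chr7:140763739-140774987, plus strand, GRCm38), the pericentral marker, was higher in the pooled 4N nuclei and was found at low levels in fewer of them. Its mean was 1120 CPM in 2N and 1573 CPM in 4N nuclei, and its median over nuclei was 350.7 CPM (quartiles 106.6 to 2052) against 1339 CPM (437.3 to 2339). The summed counts were 44059 and 43560, or 1075 CPM of all gene counts (exact Poisson 95% interval 1065 to 1086) and 1479 CPM (1465 to 1493). Nuclei under 100 CPM made up 24.1% of 2N (82 nuclei) and 5.59% of 4N nuclei (9 nuclei), and the coefficient of variation was 1.21 and 0.838. The means of 2N nuclei were 2322, 920, 734 and 1764 CPM in sets 1 to 4, 414 CPM in 1x and 469 CPM in 2x. Those of 4N nuclei were 2009, 1825, 895.5, 1661, 790 and 1066 CPM. The 4N mean was above the 2N mean in 4 of 6 pairs, and below it in sets 1 and 4. The shares of 2N and 4N nuclei under 100 CPM differed by set. They were 0.0% and 0.0% in set 1, and 28.5% and 2.44% in set 2. In set 3 they were 16.0% and 13.6%, and in set 4 18.6% and 5.13%. Set 2 held 70 of the 82 low 2N nuclei. In both 1x and 2x most 2N nuclei were low (68.4% and 66.7% under 100 CPM), against 43.5% and 25.0% of 4N nuclei. Over the 6 pairs the log2 fold was 0.44 (edgeR adjusted p = 0.999).

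The other pericentral genes followed a similar course. In the pooled groups, 25 of 30 listed genes reached 10 CPM, and 18 were higher and 7 lower in 4N; 0 were 2-fold higher and 1 was 2-fold lower (1.37% and 1.48% of all genes). The lower one was Slc13a3, a dicarboxylate transporter. Their median log2 fold was 0.38 pooled, against 0.06 for all genes, but -0.26, 0.08, 0.20 and -0.01 in sets 1 to 4, and 0.38 and 0.79 in 1x and 2x. Over the 3 sorts, 2 of 27 tested genes passed, Cyp2e1 and Akr1c6, against 0.0305% of all genes. At an unadjusted edgeR p under 0.05, 12 were higher and 1 lower, against 2.54% and 2.61% of all genes. Over the 4 sets these counts were 0 and 3, against 1.59% and 2.06% of all genes. Over the 6 pairs they were 6 and 3, against 2.28% and 2.13%. In both fits 0 of the listed genes were past the threshold. Slco1b2, a bile acid and bilirubin uptake carrier, had 2213 CPM in 2N and 2882 CPM in 4N nuclei and was higher in all 6 pairs, as were Akr1c6, Gulo and Lect2. Against these stood Glul, glutamine synthetase, which marks the innermost pericentral cells. Its CPM was lower in 4N nuclei in all 6 pairs. Pooled 2N nuclei had 414.7 CPM and pooled 4N nuclei 252.5 CPM. Sets 1 to 4 had 525.9 against 232.8, 418.1 against 303.1, 180.8 against 148.6 and 464 against 335.1 CPM. The 1x and 2x sorts had 184.2 against 107.4 and 205.7 against 145.1 CPM (edgeR adjusted p = 0.0724 over the sorts and 0.708 over the 6 pairs). Per ERCC count, the 4N value of Glul was instead 1.12 to 1.63 times the 2N value in the pairs with ERCC counts.

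Periportal genes were mostly lower in 4N nuclei. Of 28 listed genes, 26 reached 10 CPM in the pooled groups, with 7 higher and 19 lower and a median log2 fold of -0.22. Past 2-fold were 0 upwards and 2 downwards, against 1.37% and 1.48% of all genes. The medians were 0.16, -0.12, -0.16 and -0.175 in sets 1 to 4, -0.17 in 1x and -0.38 in 2x, so that set 1 alone had a positive median. Over the 3 sorts, 2 of 28 genes passed, both lower, against 0.0916% of all genes. At an unadjusted edgeR p under 0.05, 15 were lower and 0 higher, where 2.61% and 2.54% of all tested genes were. Over the 6 pairs 0 passed, with 9 lower and 0 higher at that unadjusted p, against 2.13% and 2.28% of all genes. Over the 4 sets 0 of 27 passed, with 4 lower and 0 higher, against 2.06% and 1.59%. Sds had 185.2 CPM in 2N and 55.6 CPM in 4N nuclei. The 2N pools had 46.04, 216.7, 130.9 and 120.9 CPM in sets 1 to 4, 432.7 in 1x and 398.5 in 2x, and the 4N pools 52.27, 57.93, 55.79, 55.92, 281.7 and 167.1 CPM. Its 4N value was lower in 5 of 6 pairs. Etnppl was lower in all 6 pairs, with 397.1 CPM in the pooled 2N nuclei and a pooled log2 fold of -1.47. Cps1, periportal as the first urea cycle enzyme, had 4779 and 3826 CPM when pooled and was higher in 4N nuclei in 3 of 6 pairs.

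**Figure D4:**
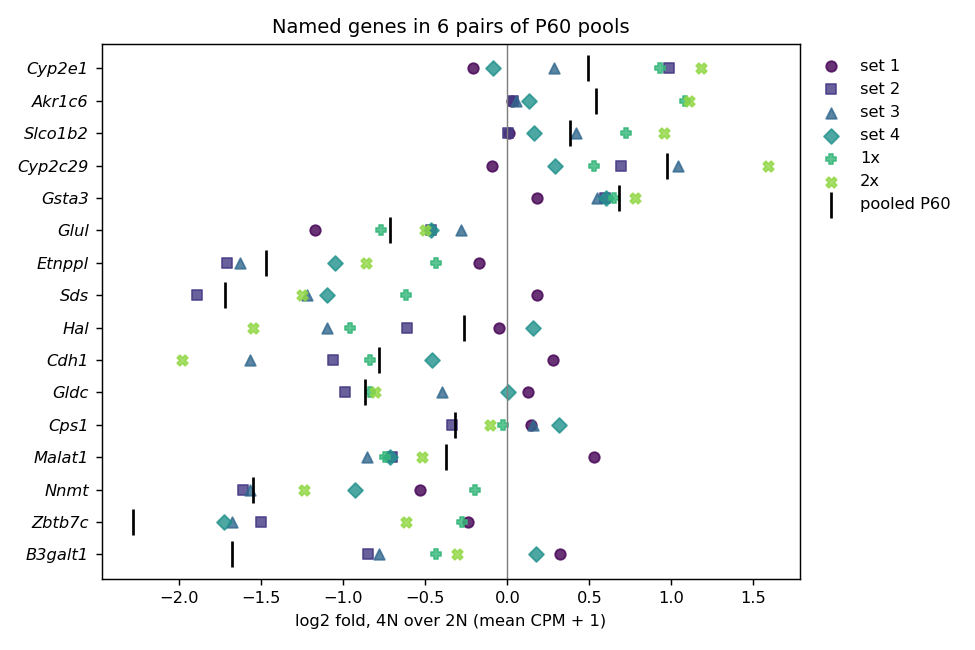
Log2 fold, 4N over 2N, of the mean CPM plus 1 for 16 named genes in the 6 P60 pairs (symbols), with the pooled P60 value as a black bar. Glul, Etnppl, Nnmt and Zbtb7c lay below 0 and Akr1c6, Slco1b2 and Gsta3 above 0 in all 6 pairs.

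The zonation of single nuclei was summarised as the pericentral share, the pericentral counts as a percentage of pericentral plus periportal counts. In the pooled groups the median was 16.2% in 2N nuclei (1.96 to 90.6%) and 35.4% in 4N nuclei (5.24 to 92.8%). Nuclei over 50% made up 20.59% of the pooled 2N (70) and 22.98% of the pooled 4N nuclei (37), but a smaller share of 4N than of 2N nuclei in each of the 6 pairs. These shares, 2N against 4N, were 26.92% against 24.32%, 15.45% against 9.76%, 6 nuclei of 25 against 18.18% and 44.19% against 41.03% in sets 1 to 4, 3.51% against 1.45% in 1x and 4.55% against 3.57% in 2x, from 1 to 38 nuclei each. By set, the 2N and 4N medians were 33.6% and 35.3%, 14.6% and 26.8%, 16.0% and 36.1%, and 45.2% and 44.5%. In the 1x sort they were 6.83% and 10.3%, and in the 2x sort 5.72% and 18.1%. The 4N median was higher in 5 of 6 pairs, and the gap was 1.68 points in set 1 and -0.675 points in set 4. P60 cells sorted by ploidy went further in the same direction for pericentral genes: 25 of 25 had a higher level in 4N than in 2N cells, as did 54.04% of all genes, with a median log2 fold of 1.82 against 0.03. Cyp2e1 had 489 CPM in 2N cells and 2631 CPM in 4N cells. Of 26 periportal genes, 20 were lower in 4N cells, with a median log2 fold of -0.40, where 45.15% of all genes were lower. Other genes had opposite directions in cells and pooled nuclei: Malat1 (log2 fold 0.61), Cyp7b1 (1.86), Cyp2c40 (1.63) and B3galt1 (0.55) were higher in 4N cells. The sorted cells and nuclei hold different mixtures of ploidy per cell, since a 4N cell can hold 2 nuclei of 2N.

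**Figure D5:**
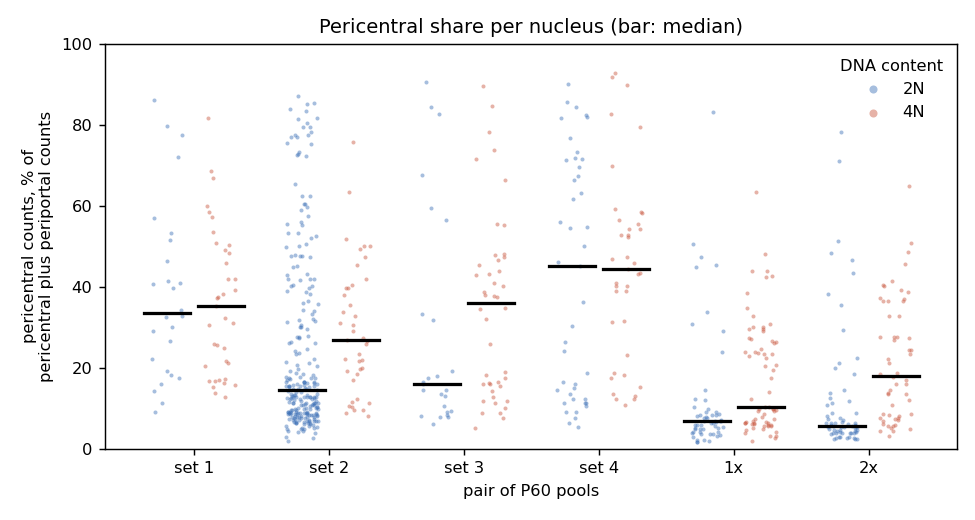
Pericentral share of each nucleus (percent of pericentral plus periportal counts) in the 6 P60 pairs, 2N in blue and 4N in red; black bars are medians. The 4N median was higher in 5 of 6 pairs and 0.675 points lower in set 4.

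Several genes of other groups had the same direction in all 6 pairs, which 3.34% of all 8463 genes did upwards and 1.17% downwards. Gsta3 was higher in all 6 pairs (sets 2 to 4 had 280.1 against 424.1, 330.1 against 483.3 and 630.8 against 957 CPM, and 1x and 2x had 273.3 against 429.9 and 291.1 against 499.2 CPM), with the smallest difference in set 1 and a mean log2 fold of 0.56 ± 0.202 (SD, n = 6 pairs). It did not pass over the 6 pairs (edgeR adjusted p = 0.384). It was the only one of the 28 drug metabolism genes at 10 CPM to be higher in all 6 pairs, and 0 were lower in all. Among bile acid genes, 3 of 17 were higher in all 6 pairs: Slco1b2, which is also on the pericentral list, the export pump Abcc2 (2033 and 2843 CPM pooled) and the acyl-CoA synthetase Slc27a2 (563 and 704 CPM). In fatty acid synthesis, Me1, malic enzyme, and Gpam, which adds the first fatty acid to glycerol phosphate, were higher in all 6 pairs, 2 of 12. Hamp, the iron hormone hepcidin, was higher in all 6 (607 and 679 CPM pooled). Igf1, the growth factor induced by growth hormone, was lower in all 6 pairs, with 1950 CPM in pooled 2N and 1057 CPM in pooled 4N nuclei. Within pairs its mean log2 fold was -0.20 ± 0.122 (SD, n = 6 pairs), so the pooled fold was larger than that of any pair. None of these genes passed the test over the sorts or over the 6 pairs.

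Among the hepatocyte transcription factors, 2 of 29 were higher in all 6 pairs, a share near the 3.34% of all genes. They were Onecut2 (688 and 747.5 CPM pooled) and the nuclear receptor Nr5a2 (316.5 and 452 CPM), and 0 were lower. In the list of cytokinesis and ploidy control genes, 14 of 28 reached 10 CPM and 2 were higher in all 6 pairs: Rb1, the retinoblastoma protein that restrains S phase entry (66.44 and 106.6 CPM pooled), and the deacetylase Sirt1 (37.7 and 39.6 CPM). Of 32 cell cycle genes only 5 reached 10 CPM in either pooled group, and 0 of these were higher or lower in all 6 pairs. Mcm7, a subunit of the replicative helicase, was the 1 past 2-fold (4.71 CPM in 2N and 13.9 CPM in 4N nuclei), with log2 folds from 0.36 to 4.30 in the sets, 0.06 in 1x and -1.07 in 2x; it is named after its values were seen. The median over these 5 genes of the mean log2 fold in the sets was 0.53, against 0.08 for all genes. Over the 4 ages, 4 of 29 cell cycle genes tested had an unadjusted edgeR p under 0.05 in the higher and 0 in the lower direction, against 1.07% and 1.70% of all genes. Of 8 p53 targets at that level, 0 were 2-fold higher or lower. The nuclear envelope, centrosome and chromatin regulator lists also had 0 genes past 2-fold, of 19, 14 and 30. Over all genes 1.37% were 2-fold higher and 1.48% lower, so in lists this short 0 does not set them apart. With the sets weighted equally, 1 p53 target and 1 nuclear envelope gene were 2-fold lower. Jpx, a noncoding RNA gene beside Xist, was higher in all 6 pairs (24.1 and 42.2 CPM pooled), and Airn, the imprinted noncoding RNA that overlaps Igf2r, was lower in all 6 (85.3 and 66.2 CPM). Strand use in counting is not given in the sources used here, so the reads of Airn and Igf2r cannot be told apart. Plasma protein genes did not share a direction across sets: their median log2 fold was 0.19 pooled, -0.83 in set 1 and 0.695 in set 2.

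The summed level per chromosome was close to equal in 4N and 2N nuclei. For chromosomes 1 to 18 the ratio of 4N to 2N lay between 0.915 and 1.11 in every pair, for the X chromosome between 1.01 and 1.06, and for the Y chromosome, with 4 genes at 10 CPM, between 0.908 and 1.18. Chromosome 19 stood apart, with ratios of 1.19, 0.836, 0.794 and 0.815 in sets 1 to 4, 0.843 in 1x and 0.912 in 2x. Malat1 lies on it (chr19:5795690-5802672, minus strand), and the median log2 fold of its genes at 10 CPM was 0.06, like that of all genes.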

How the data were processed

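Counts per gene and single nucleus, with 92 ERCC entries, are the values as deposited; the authors' normalization is none, the table holding whole-number counts. Per the submitters' processing notes, tools named for the series include TopHat2 2.1.0, HISAT2 2.1.0, featureCounts 1.5.3 and 2.0.0, UMI-tools 0.5.0 and HTSeq 0.6.0, on GRCm38. Which of them made these counts, whether reads or molecules were counted, and strand use are not stated in the labels. The tables held 1900 further columns that were not used. Nuclei were grouped by their labels, 340 as 2N and 161 as 4N; set 2 held 246 of the 2N nuclei. Levels are means over nuclei of CPM, counts scaled to 1e6 gene counts without ERCC, and folds add 1 CPM; genes needed 10 CPM in either group, and 116 were then at least 2-fold higher and 125 lower in 4N. Nuclei were thinned to 20000 gene counts for shares of nuclei, genes detected and variation. With 1 pool per group no p was computed over nuclei. Summed counts per pool were tested with edgeR 4.0.16 (R 4.3.3; TMM, filterByExpr, quasi-likelihood, pair as a block, Benjamini-Hochberg over all genes tested, threshold 0.05), with DESeq2 1.42.0, no low-count filter, no block and each pair left out as alternatives. The fits were tested on simulated data without differences between sets or sorts and with the same fold in each pair. At 2-fold they recovered 46 of 100 changed genes over the 3 sorts and 23 of 100 over the 4 sets. The summed gene counts were 40967901 in 2N and 29460527 in 4N nuclei. No doublet caller was run, and no nucleus was removed. 0 nuclei held identical counts. Gene positions come from the GENCODE annotation of GRCm38, matched by symbol for 95.2% of the genes at 10 CPM.

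The genes named were, for the pooled levels, the 15 largest folds in each direction among those past 2-fold with a count in at least 20% of nuclei of the higher group; for each planned edgeR fit, the 10 genes past the threshold with the smallest p in each direction; the 4 most abundant genes of each list; and Cyp2e1. Others named were picked for a direction shared by all 6 pairs or for a small p, after their values were seen. The genes and lists were chosen with earlier results of these data known. The division into 4 sets by ERCC share, and the fits over sets and over 6 pairs, were added after seeing the data. Only some of the gene lists examined are described.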

Additional observations from a re-analysis of the deposited data

Results flagged for a closer look

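Across the 6 P60 pairs, 76 values (list medians and named genes) were examined for a pair that stood apart from the other 5, by the gap to its nearest neighbour relative to the range; 7 did so, and chance alone marks about 1 in 20. Malat1 had a log2 fold of 0.53 in set 1 against -0.86 to -0.52 in the other pairs. Fam124a had 1.77 in set 4 against -1.59 to -0.53, at levels of 0.501 CPM in 2N and 4.12 CPM in 4N nuclei. Tspan7 had 4.11 in set 4 against -0.04 to 0.84, with 2N nuclei of that set listed at 0. The median log2 fold of the fatty acid synthesis list was -0.27 in set 2 against 0.09 to 0.21. That of the growth hormone list was 0.29 in the 2x sort against -0.16 to -0.04. The clock list had 0.39 in set 3 against -0.05 to 0.06, and the DNA damage and repair list 0.68 in set 1 against -0.06 to 0.16.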

How the results depend on the processing

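Of the genes tested for the pooled levels, 1.37% were at least 2-fold higher and 1.48% lower. These shares became 0.591% and 0.863% with 5 CPM added, 0.275% and 0.923% at a floor of 50 CPM, 3.92% and 4.26% at a floor of 1 CPM, 7.21% and 5.62% at 1.5-fold, 0.248% and 0.39% at 3-fold, and 15.1% and 0.54% per ERCC count. With the 4 sets weighted equally 1.53% were higher and 3.23% lower. The share of higher genes among both was 48.1%, against 22.9% at the floor of 50 CPM, 96.6% per ERCC count and 32.1% with equal sets. Counting per ERCC moved the median log2 fold of all genes from 0.06 to 0.61. These per-ERCC values come from the pooled groups, which hold sets of different ERCC share in different proportions. Within pairs, the median fold per ERCC count, not on the log2 scale, was 1.90 in set 4 to 2.37 in 1x. The 1.67-fold ratio to ERCC was 1.01 from summed counts, 1.91 in set 2 and 2.27 in set 3. The 6.66-point difference in the share of nuclei with a count was 1.92 points at 5000 counts and 11.7 points unthinned. The ratio of variation was 0.920 in set 1. The pooled difference in the median pericentral share was 19.3 points without thinning and 20.1 points at 20000 counts. Without thinning, it was 1.68 points in set 1 and reversed to -0.675 points in set 4. Under 8 alternatives, 0 of 31 named genes changed direction. Of these alternatives, 1 left out 0 nuclei and 1 added 5 CPM, so neither could change a direction. All of these genes but Cyp2e1 were picked for a large pooled fold in the same nuclei, and some reversed in single sets, as Oip5 did in set 1. Under the alternatives, 22 values moved by more than the SD of the gene over the sets. From summed counts, Chrna1 went from 1.505 to 0.32 and Tspan7 from 1.46 to 0.35, within that SD.

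Genes higher and lower over the 3 sorts (4 and 12) were 24 and 59 by DESeq2, 39 and 75 without a filter, 0 and 0 without the block, 0 and 0 over all 6 pairs of pools (4 ages, 1x and 2x), and from 0 to 19 and from 1 to 45 with a pair left out. Over the 4 ages (0 and 0) they were 26 and 1 by DESeq2, 16 and 14 without a filter, and from 0 to 19 and from 0 to 10 with a pair left out, the highest without P60. Over the 4 sets (0 and 0) they were 1 and 17 by DESeq2, 1 and 25 without a filter, and 0 higher and from 0 to 5 lower with a set left out, 5 without set 1. Over the 6 P60 pairs (0 and 1) they were 4 and 24 by DESeq2, 11 and 43 without a filter, 0 and 0 without the block, and 0 higher and from 0 to 8 lower with a pair left out, 8 without set 1. The cause of these changes was not tested. The mean log2 ratio to ERCC stayed positive with each pair left out, from 0.24 to 0.62 over 6 pairs and from 0.99 to 1.08 over the 5 P60 pairs. No paired analysis was possible because the numbers in the labels count single nuclei within a group and pair none of them across groups; the block used is the sort, age or set. Each set of 4N nuclei rests on 37 to 44 nuclei, and the sets of 2N nuclei, other than set 2, on 25 to 43.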
